A study of Homo sapiens with 3 samples.

Results

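The tubulin genes examined here are 10 members of the alpha, beta and gamma tubulin families, taken by gene name from a table of 50868 genes: TUBA1A, TUBA1B, TUBA1C and TUBA4A (alpha), TUBB, TUBB2A, TUBB3, TUBB4B and TUBB6 (beta) and TUBG1 (gamma). Each name matched 1 row, and all 10 passed 1 FPKM (fragment counts scaled to the length of the gene and the size of the library), as did 11680 genes in all. RNA was sequenced from AGS, a human gastric cancer cell line, after 48 h with DMSO (the control), with SFA at 12 µM or with SFE at 18 µM. Each group was 1 library of total RNA depleted of ribosomal RNA, and the chemistry of the compounds coded SFA and SFE is not given in the sources used here. Values of 3 libraries are given in the order DMSO, SFA, SFE. No group had a replicate, so every difference below compares single libraries, its 95% interval covers counting error only, and no test between conditions could be made. In bulk RNA, fewer cells with a transcript and less of it per cell cannot be told apart.

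Alpha and beta tubulin bind each other as a dimer, and these dimers polymerise into microtubules, the tracks and the spindle fibres of the cell. Gamma tubulin sits in a ring-shaped complex from which new microtubules grow. Cells also adjust alpha and beta tubulin mRNA to the amount of unpolymerised tubulin: the factor TTC5 recognises the first residues of nascent tubulin on the ribosome, and the mRNA is then degraded. The genes of each family, called isotypes, differ mainly in where they are expressed.

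The coding starts show how alike the isotypes are at the stretch that this recognition reads. Windows of 50 bases, a chosen length, show how much coding sequence is identical between genes. Windows outside the coding sequence of the members were not counted. The first 30 coding bases of 5 members, from GENCODE 29 transcripts and with the first 4 codons in capitals, were:
TUBA1B: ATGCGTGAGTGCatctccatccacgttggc
TUBA4A: ATGCGTGAATGCatctcagtccacgtgggg
TUBB: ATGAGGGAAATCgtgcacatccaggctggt
TUBB2A: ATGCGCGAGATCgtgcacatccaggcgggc
TUBG1: ATGCCGAGGGAAatcatcaccctacagttg
These coding sequences start at base 49131300 of chromosome 12 (TUBA1B), 219253858 of chromosome 2 (TUBA4A), 30720507 of chromosome 6 (TUBB), 3157463 of chromosome 6 (TUBB2A) and 42609738 of chromosome 17 (TUBG1), in hg38. TUBA1A and TUBA1C begin with the same 30 bases as TUBA1B. Over the whole coding sequence, alpha members were 84.4% to 97.2% identical to each other, beta members 81.0% to 87.8%, and alpha members 55.3% to 58.0% identical to beta members. The closest pair was TUBA1A and TUBA1B. Of all windows of 50 bases in the TUBA1B coding sequence, 75.6% occurred letter for letter in a transcript of another tubulin gene or pseudogene. The figure was 58.5% for TUBA1A, 57.1% for TUBA1C and 78.7% for TUBB2A, whose nearest copy is TUBB2B (72.6% of windows), but 8.57% for TUBA4A and 1.55% for TUBB6. It was 35.8% for TUBG1, mostly shared with TUBG2 (34.8%), and 33.5% for TUBB, mostly shared with TUBBP1 (29.3%). How reads with several matching positions were counted is not given in the sources used here, so the split between copies that share windows is uncertain.

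In the DMSO library TUBB, the ubiquitous class I beta tubulin (chr6:30720201-30725426, plus strand, hg38), had the highest deposited level of the 10, at 734 FPKM. TUBA1B, the main alpha tubulin of most dividing cells (chr12:49127782-49131397, minus strand), followed at 301 FPKM, and TUBB4B, the class IVb beta tubulin (chr9:137241213-137243707, plus strand), at 300.1 FPKM. The intervals of TUBA1B and TUBB4B overlapped. TUBA1C (chr12:49188736-49274603, plus strand) stood at 171 FPKM, TUBG1 (chr17:42609676-42615234, plus strand) at 68.0, TUBA1A (chr12:49184796-49189324, minus strand) at 63.3 and TUBA4A (chr2:219249711-219278170, minus strand) at 57.0 FPKM. These 4 differed from each other beyond counting error. Low levels were seen for TUBB2A (chr6:3153669-3157526, minus strand) at 12.3 FPKM, TUBB3 (chr16:89921392-89938761, plus strand) at 7.85 and TUBB6 (chr18:12307669-12344320, plus strand) at 7.28 FPKM, and the intervals of the last pair overlapped.

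**Figure D1:**
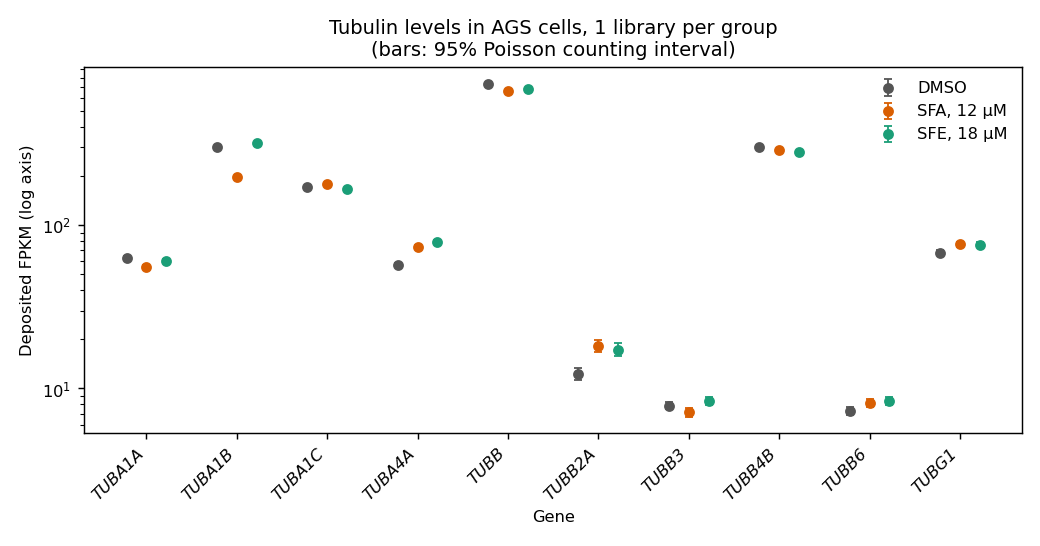
Deposited FPKM (vertical log axis) of the 10 tubulin members with DMSO (grey), 12 µM SFA (orange) and 18 µM SFE (green); points are single libraries and bars are 95% Poisson counting intervals. The 3 points of most genes lie close together, while TUBA1B is low with SFA at 198 FPKM against 301 with DMSO and 317 with SFE.

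The length behind the deposited FPKM bears on this order. Lengths computed back from counts and FPKM were 1.1998 (TUBB2A) to 2.64 (TUBB6) times the merged exon length of the gene in GENCODE 29, and for 3 members (TUBA1A, TUBA1B and TUBB4B) longer than the whole gene: 8144 bases for TUBA1B, whose gene spans 3616 bases. The median over 10359 genes was 1.56 times. Per kilobase of merged exon the DMSO level was 897 CPM (counts scaled to library size) for TUBB, 686 for TUBA1B, 506 for TUBB4B, 337 for TUBA1C, 151 for TUBA1A, 101 for TUBG1, 93.5 for TUBA4A, 19.2 for TUBB6, 18.9 for TUBB3 and 14.7 for TUBB2A. On that scale 6 of the 10 kept their place in the DMSO order, and TUBB2A moved to the lowest place. The count ratio of a single gene between libraries does not depend on the length, while sums over genes and log2(FPKM + 1) differences do.

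SFA and SFE differed most in TUBA1B. Its deposited level was 301, 198 and 317 FPKM, from 46008, 22006 and 35189 counts. The SFA library is the low one, and the intervals of the 3 libraries do not overlap. As counts per library total, TUBA1B was 1.52-fold lower with SFA than with DMSO (95% counting interval 1.495 to 1.54) and 1.05-fold higher with SFE (1.04 to 1.07), and the latter turned to 0.996 under median-ratio scaling, which sets library sizes by the typical gene instead of the total. Between the compounds, at doses of 18 and 12 µM, TUBA1B was 1.599-fold higher with SFE (1.57 to 1.63).

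The TUBA1B locus holds a second listed gene, and it stood on the other side of DMSO in the SFA library. RP11-386G11.10 (now TUBA1B-AS1; chr12:49127782-49147869, plus strand) is an antisense RNA gene that covers the whole of TUBA1B and shares 1309 exon bases with it. It had 32083, 26153 and 24600 counts, which is 1.12-fold higher with SFA (1.10 to 1.14) and 1.05-fold higher with SFE (1.04 to 1.07). The use of strand in counting is not given, so reads within the 1309 shared exon bases cannot be told apart. TUBA1B has 3574 merged exon bases in all. The part of the antisense gene in the TUBA1B difference was not tested. With both genes summed, the locus stood at 4161, 3531 and 4382 CPM. That was 1.18-fold lower with SFA (1.17 to 1.19) and 1.05-fold higher with SFE (1.04 to 1.06). Median-ratio scaling divides SFE ratios to DMSO by 1.056, so neither the antisense gene nor the summed locus stays above DMSO with SFE under it. The antisense gene was higher by 208 CPM in the SFA library than in the DMSO library, 24.8% of the 838 CPM by which TUBA1B was lower. TUBA1B made up 58.9% of the summed counts with DMSO and with SFE, and 45.7% with SFA.

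The other TUBA1 genes differed little. TUBA1A, an isotype abundant in neurons, stood at 63.3, 55.4 and 60.7 FPKM, 1.14-fold lower with SFA (1.11 to 1.18) and 1.04-fold lower with SFE (1.01 to 1.08). Summed with TUBA1C, the gene that overlaps it, the SFA ratio of the sum was 1.001 (0.986 to 1.02). TUBA1A was 24.9% of that sum with DMSO and 21.8% with SFA, so the ratio is mostly that of TUBA1C. TUBA1C, a widely expressed isotype, stood at 171, 179 and 167 FPKM, 1.04-fold higher with SFA (1.03 to 1.06) and 1.02-fold lower with SFE (1.004 to 1.04). TUBA1A and TUBA1C overlap each other on opposite strands with 490 shared exon bases, and TUBA1C also holds the antisense gene RP11-161H23.5, with 17493, 13684 and 12308 counts. Because these copies are hard to tell apart, their counts were also summed: TUBA1A, TUBA1B and TUBA1C together had 85030, 50405 and 62808 counts, 1.23-fold lower with SFA (1.21 to 1.24) and 1.02-fold higher with SFE (1.01 to 1.03). With all genes that overlap them, the sum was 1.08-fold lower with SFA (1.07 to 1.09) and 1.02-fold higher with SFE (1.01 to 1.03). Median-ratio scaling divides SFE ratios to DMSO by 1.056, so neither sum stays above DMSO with SFE under it.

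**Figure D2:**
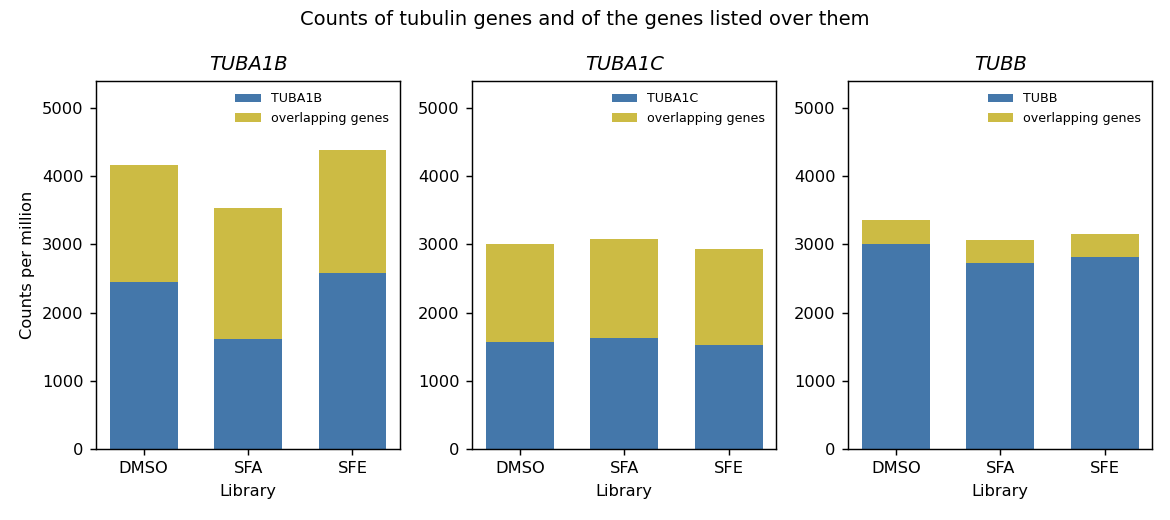
CPM (vertical axis from 0) in each library for TUBA1B, TUBA1C and TUBB (blue) and for the listed genes that overlap them (yellow, stacked on top). With SFA the blue part of TUBA1B is 1613 against 2452 with DMSO while the yellow part is 1917 against 1710, and the bars of TUBA1C and TUBB are nearly level.

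TUBA4A was the alpha member that was higher with both compounds. This isotype, encoded without the terminal tyrosine of most alpha tubulins, stood at 57.0, 73.3 and 79.1 FPKM, from 7157, 6691 and 7227 counts. DMSO is the low library, and no interval overlaps another. The ratio to DMSO was 1.29 with SFA (1.24 to 1.33) and 1.39 with SFE (1.34 to 1.44). Its coding sequence shared few windows with other tubulins, and with its overlapping genes STK16 and TUBA4B summed in, the ratios were 1.28 and 1.38.

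Among beta tubulins, TUBB2A, a class II isotype best known from neurons, had the largest ratios. It stood at 12.3, 18.2 and 17.3 FPKM, from 477, 513 and 488 counts. Both compound libraries are above DMSO and their intervals overlap each other. The ratio to DMSO was 1.48 with SFA (1.30 to 1.68) and 1.41 with SFE (1.24 to 1.5998). TUBB2A is the 1 member that overlaps no other listed gene. Of its 50-base coding windows, however, 72.6% also occur in TUBB2B, so the split between these copies is uncertain, and they were not summed. TUBB2B (chr6:3224261-3231730), a near-identical neighbour with no place among the 10, stood at 1.33, 3.03 and 2.60 FPKM, from 93, 154 and 132 counts. That was 2.28-fold higher with SFA (1.75 to 2.98) and 1.95-fold higher with SFE (1.49 to 2.57).

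The abundant beta tubulins were slightly lower with both compounds. TUBB stood at 734, 666 and 684 FPKM, 1.10-fold lower (1.09 to 1.12) and 1.07-fold lower (1.06 to 1.09). TUBB4B stood at 300.1, 288 and 280 FPKM, 1.04-fold lower (1.02 to 1.07) and 1.07-fold lower (1.05 to 1.10). For both genes DMSO is the highest library, and its interval overlaps neither of the others. The antisense gene XXbac-BPG252P9.9 within TUBB had 6625, 4590 and 4620 counts.

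TUBB3, the class III isotype used as a marker of neurons and also found in carcinomas, stood at 7.85, 7.16 and 8.37 FPKM. Its ratio to DMSO was 0.912 with SFA (0.843 to 0.987) and 1.07 with SFE (0.989 to 1.15), the latter interval holding 1. With its overlapping genes summed in, the SFA ratio was 0.951 (0.881 to 1.03), an interval that holds 1. RP11-566K11.2, a protein-coding gene on the same strand that shares 1584 exon bases with TUBB3, was listed at 0, 34 and 0 counts. TUBB6, the class V isotype, stood at 7.28, 8.14 and 8.42 FPKM, with ratios of 1.12 (1.04 to 1.21) and 1.16 (1.07 to 1.25). AFG3L2, a mitochondrial protease gene that overlaps it on the opposite strand, had a near-equal number of counts (1445, 1193 and 1128).

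TUBG1, the main gamma tubulin of dividing cells, stood at 68.0, 76.4 and 76.1 FPKM. The ratio to DMSO was 1.12 with SFA (1.08 to 1.17) and 1.12 with SFE (1.07 to 1.17). Scaled by library total, both compound libraries thus lay at the same level above DMSO. Under median-ratio scaling the ratios were 1.10 with SFA and 1.06 with SFE. TUBG1 overlaps FAM134C (now RETREG3) by 139 exon bases. Its paralog TUBG2 (chr17:42659305-42667006) stood at 2.76, 4.64 and 3.27 FPKM, 1.68-fold higher with SFA (1.37 to 2.06) and 1.18-fold higher with SFE (0.949 to 1.48).

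**Figure D3:**
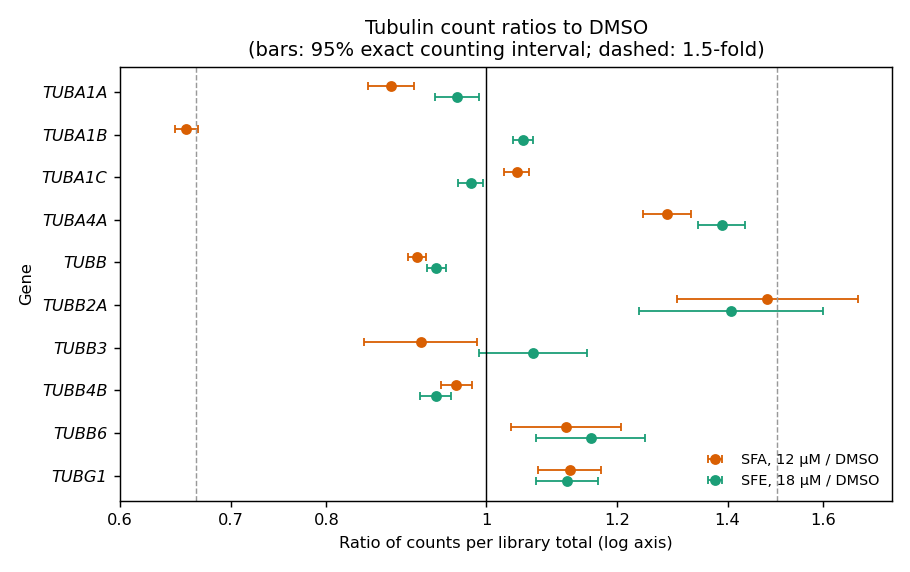
Ratio of counts per library total to DMSO (horizontal log axis) for each tubulin member with 12 µM SFA (orange) and 18 µM SFE (green); bars are 95% exact counting intervals, the solid line is 1 and the dashed lines are 1.5-fold. TUBA1B with SFA, at 0.658, is the only point past a dashed line, and TUBA4A and TUBB2A lie to the right of 1 with both compounds.

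On the log2(FPKM + 1) scale, 1 of the 10 members (TUBA1B) was at least 1.5-fold lower with SFA, against 4.67% of the 11680 genes measured, and 0 were at least 1.5-fold higher, against 5.36%. With SFE, 0 members were at least 1.5-fold higher or lower, against 5.34% and 3.48% of all genes. At 2-fold, 0 members were higher or lower with SFA (1.36% and 1.34% of all genes) and 0 with SFE (1.37% and 1.01%). As a ratio of counts per library total, TUBA1B with SFA was again the 1 member past 1.5-fold, against 9.08% of all genes lower with SFA, 10.2% higher with SFA, 6.89% lower with SFE and 10.6% higher with SFE. Differences ran from −0.60 to 0.53 with SFA and from −0.10 to 0.47 with SFE. The median was 0.00 with SFA and 0.08 with SFE, beside 0.01 and 0.03 over all genes. Both comparisons share the DMSO library: 4 members (TUBA4A, TUBB2A, TUBB6 and TUBG1) were higher than DMSO with both compounds. Lower with both were 3 (TUBA1A, TUBB and TUBB4B), and 3 (TUBA1B, TUBA1C and TUBB3) lay on opposite sides. The shares of all genes on the same or opposite sides were not computed. Singly, 51.4% of all genes were above DMSO with SFA and 55.2% with SFE. Under median-ratio scaling the TUBA1B ratio with SFE was 0.996, which places it lower with both. Between SFE and SFA, at their different doses, 1 member (TUBA1B) was at least 1.5-fold higher with SFE, against 2.88% of all genes, and 0 were as much lower, against 2.17%. At 2-fold, 0 members were higher or lower with SFE than with SFA, against 0.676% and 0.616% of all genes.

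The makeup of the alpha sum differed more between libraries than that of the beta sum. Alpha members summed to 593, 505 and 624 FPKM, and beta members to 1061, 987 and 998 FPKM. The sums with SFA were 0.853 (alpha) and 0.930 (beta) of those with DMSO, and with SFE 1.05 and 0.9403. Under median-ratio scaling the alpha sum with SFE was 0.997 of that with DMSO. TUBA1B held 50.8%, 39.2% and 50.7% of the alpha sum. TUBA1C held 28.9%, 35.3% and 26.8%, and TUBA4A 9.62%, 14.5% and 12.7%. Within the beta sum, TUBB held 69.1%, 67.5% and 68.6% and TUBB4B 28.3%, 29.1% and 28.0%, so these 2 made up nearly all of it in each library. The alpha sum was 0.558, 0.512 and 0.625 of the beta sum in FPKM, and 0.871, 0.776 and 0.967 of it per merged exon length. All 10 members together took 0.943%, 0.842% and 0.943% of all counts. These shares carry the uncertainty in TUBA1B described above.

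**Figure D4:**
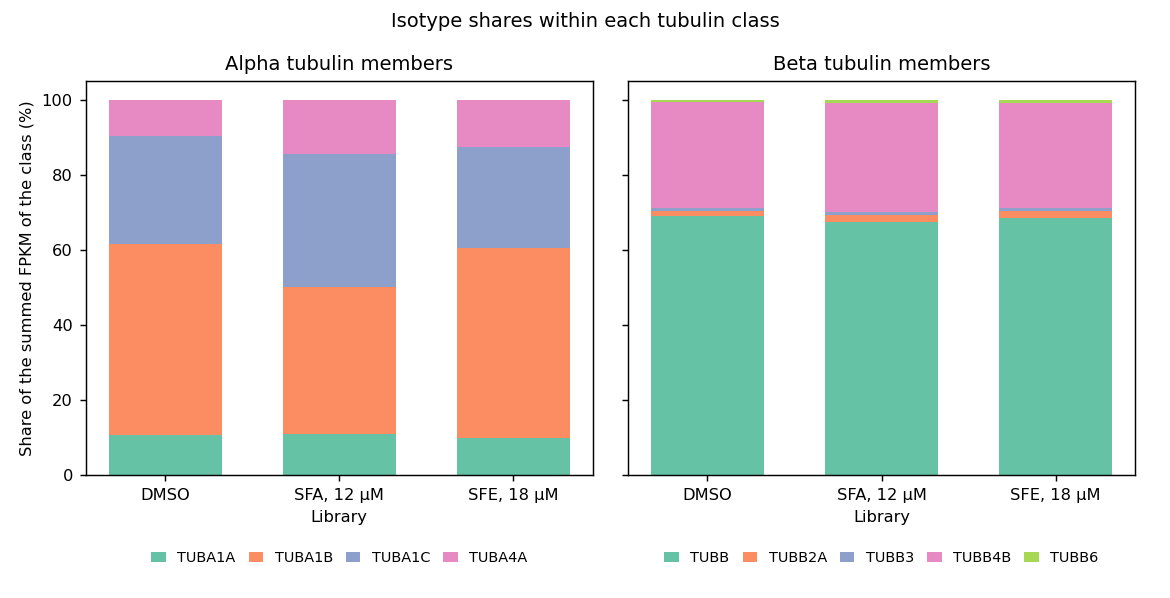
Share of each isotype (percent, vertical axis from 0) in the summed FPKM of the alpha members (left) and the beta members (right) in the 3 libraries. The TUBA1B band narrows from 50.8% with DMSO to 39.2% with SFA and is 50.7% with SFE, while the beta bands are nearly the same in all 3 libraries.

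Of 13 further tubulin genes, 4 reached 1 FPKM in a library: TUBB2B, TUBG2, and the delta and epsilon tubulins of the centriole, TUBD1 and TUBE1. TUBD1 stood at 1.10, 0.688 and 1.02 FPKM, 1.605-fold lower with SFA (1.22 to 2.13) and 1.08-fold lower with SFE (0.850 to 1.39). TUBE1 stood at 1.49, 1.33 and 1.39 FPKM, and both its intervals held 1. Of these 4, 2 (TUBB2B and TUBG2) were at least 1.5-fold higher with SFA and 1 (TUBB2B) with SFE on the log2(FPKM + 1) scale, against 5.36% and 5.34% of all genes. As count ratios the same genes were past 1.5-fold higher, against 10.2% with SFA and 10.6% with SFE. TUBD1 was then 1 of the 4 past 1.5-fold lower with SFA, against 9.08% of all genes. The other 9, among them the testis isotypes TUBA3C, TUBA3D and TUBA3E, the platelet isotype TUBB1, the brain isotype TUBB4A and the oocyte isotype TUBB8, stayed at or below 0.628 FPKM.

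Genes that fold tubulin were mostly near their DMSO levels. The CCT chaperonin, which folds tubulin chains, and prefoldin, which delivers them, had 11 of 15 genes above DMSO with each compound (medians 0.08 and 0.07), beside 51.4% of all genes with SFA and 55.2% with SFE. On the log2(FPKM + 1) scale only 1 of them differed by 1.5-fold: PFDN1, higher with SFE, against 5.34% of all genes. This prefoldin subunit stood at 5.31, 5.67 and 8.99 FPKM, and its count ratio with SFE was 1.69 (1.52 to 1.89). PFDN1 overlaps 2 other listed genes, so its value is uncertain. As count ratios, 2 further prefoldin subunits of low level were past 1.5-fold higher with SFA, against 10.2% of all genes. Named after their values were seen, they were PFDN4 at 2.29, 3.89 and 3.00 FPKM and PFDN6 at 2.14, 3.31 and 2.39 FPKM. The CCT subunit CCT7 stood at 109, 131 and 125 FPKM, CCT3 at 99.0, 121 and 104 FPKM and the prefoldin subunit PFDN2 at 13.03, 16.7 and 17.4 FPKM. Of 7 measured tubulin folding cofactors, which assemble the dimer, 0 differed by 1.5-fold on the log2(FPKM + 1) scale (medians −0.06 and 0.06). Of all genes, 5.36% were as much higher and 4.67% lower with SFA, and 5.34% and 3.48% with SFE. TBCC stood at 23.9, 28.3 and 25.4 FPKM. ARL2, a small GTPase partner of the cofactors, stood at 7.62, 5.77 and 6.20 FPKM. TBCD and TBCE had differences within 0.12 of 0 on the log2 scale.

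Among 8 measured genes of tubulin mRNA autoregulation, TTC5 had 381, 350 and 280 counts, 1.26-fold higher with SFA (1.09 to 1.47) and 1.01-fold higher with SFE (0.863 to 1.18). CNOT1, the scaffold of the CCR4-NOT deadenylase that shortens mRNA tails, stood at 26.7, 17.1 and 21.7 FPKM, 1.56-fold lower with SFA (1.502 to 1.61) and 1.23-fold lower with SFE (1.19 to 1.27). It overlaps 4 other listed genes, so its value is uncertain. CNOT1 was the 1 gene of the 8 past 1.5-fold with SFA. Of all genes, 4.67% were as much lower on the log2(FPKM + 1) scale and 9.08% as a count ratio. With SFE, 0 of the 8 passed, against 3.48% lower and 5.34% higher on the log2(FPKM + 1) scale. The medians were −0.09 and −0.05. CNOT11, the CCR4-NOT subunit that SCAPER joins to TTC5, stood at 23.1, 20.9 and 22.6 FPKM, CNOT10 at 5.47, 4.95 and 5.21 FPKM and CNOT7, a deadenylase, at 10.7, 11.3 and 10.7 FPKM. SCAPER was under the level filter, with 100, 49 and 48 counts.

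Genes of the gamma-tubulin ring complex and its anchors had 10 of 14 members below DMSO with each compound, beside 48.6% of all genes with SFA and 44.8% with SFE. The medians were −0.17 and −0.05, and 0 of the 14 differed by 1.5-fold on the log2(FPKM + 1) scale. Of all genes, 5.36% were as much higher and 4.67% lower with SFA, and 5.34% and 3.48% with SFE. MZT1, a small subunit of the ring complex, stood at 5.93, 3.70 and 4.24 FPKM, which as a ratio of its 256, 116 and 133 counts was 1.604-fold lower with SFA (1.28 to 2.02) and 1.399-fold lower with SFE (1.13 to 1.74). As a count ratio MZT1 was the 1 gene of the 14 past 1.5-fold with SFA, against 9.08% of all genes as much lower. With SFE 0 passed, against 6.89% lower and 10.6% higher. MZT2B, another such subunit, stood at 11.3, 9.49 and 7.83 FPKM. CKAP5, a microtubule polymerase, stood at 17.4, 13.5 and 16.6 FPKM, and TUBGCP3, a core subunit, at 4.48, 5.64 and 5.34 FPKM. Of 12 measured tubulin modifying enzymes, 0 differed by 1.5-fold on the log2(FPKM + 1) scale or as a count ratio (medians 0.04 and −0.01). On the log2 scale 5.36% of all genes were as much higher and 4.67% lower with SFA, and 5.34% and 3.48% with SFE. As count ratios the shares were 10.2% and 9.08% with SFA, and 10.6% and 6.89% with SFE. TTL, which puts the terminal tyrosine back on alpha tubulin, stood at 9.66, 7.77 and 8.88 FPKM, TPGS2, of the polyglutamylase complex, at 6.27, 4.71 and 5.10 FPKM, TTLL4, a glutamylase, at 5.90, 6.60 and 6.98 FPKM and TTLL12 at 52.5, 59.8 and 46.7 FPKM.

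Among the measured genes of these lists, the widest log2(FPKM + 1) differences were those of MAP7 and MAP1B, whose proteins bind microtubules. TUBB2B with SFA was close behind MAP1B at 0.79, and as a count ratio it was further from 1 than MAP1B. Of 15 measured stabilisers and end-binding proteins, 3 were at least 1.5-fold lower with SFA (4.67% of all genes) and 2 with SFE (3.48%) on the log2(FPKM + 1) scale. Of these 15, 0 were as much higher (5.36% and 5.34% of all genes), and the medians were −0.12 and 0.01. MAP2, also of this list but under the level filter and so left out of these counts, was past 1.5-fold higher with both compounds (0.65 and 0.62). As a count ratio, 1 of the 15 was 1.5-fold higher with SFA, against 10.2% of all genes: MAP1S, at 2.61, 4.13 and 3.11 FPKM. MAP1S is a microtubule-associated protein named after its values were seen. MAP1B, a microtubule-stabilising protein of growing neurites, stood at 8.59, 4.49 and 4.46 FPKM, 1.91-fold lower (1.79 to 2.05) and 1.93-fold lower (1.80 to 2.07). MAP7, an epithelial microtubule-binding protein that recruits kinesin-1, stood at 4.68, 1.81 and 1.88 FPKM, 2.58-fold lower (2.23 to 2.99) and 2.49-fold lower (2.15 to 2.88). It lay below the level used to choose names and is named after its values were seen. CAMSAP3, which holds microtubule minus ends in epithelial cells, stood at 7.25, 4.42 and 5.12 FPKM, 1.64-fold lower with SFA (1.44 to 1.87) and 1.41-fold lower with SFE (1.25 to 1.603). MAP1B and CAMSAP3 overlap no other listed gene. CLASP1 stood at 8.44, 6.61 and 7.38 FPKM and the dynactin subunit DCTN1 at 20.3, 23.0 and 25.0 FPKM. Of 9 measured destabilisers and severing enzymes, 0 differed by 1.5-fold on the log2(FPKM + 1) scale (medians 0.04 and 0.00). Of all genes, 5.36% were as much higher and 4.67% lower with SFA, and 5.34% and 3.48% with SFE. As count ratios 1 of the 9 was lower with SFA, against 9.08% of all genes, and 1 severing enzyme was higher with SFE, against 10.6%. The former was the kinesin KIF2A at 2.68, 1.70 and 2.26 FPKM, named after its values were seen. STMN1 (stathmin), which sequesters dimers, stood at 8.51, 9.11 and 10.3 FPKM, and the depolymerising kinesins KIF2C and KIF18B at 28.3, 30.4 and 28.3 FPKM and at 20.3, 21.0 and 19.0 FPKM.

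**Figure D5:**
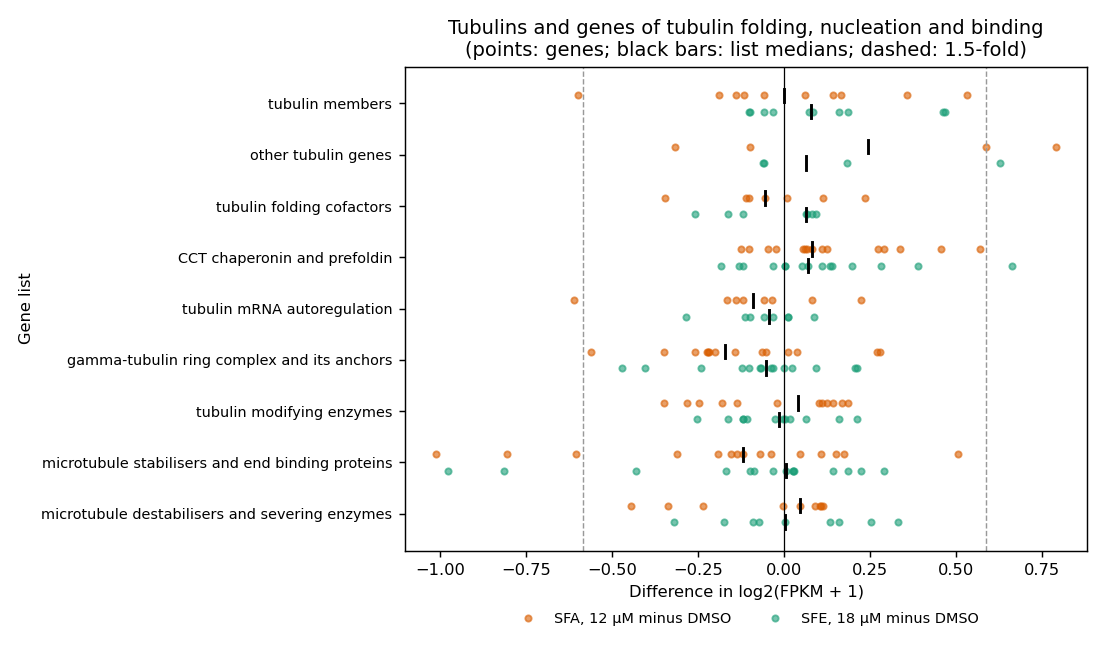
Difference from DMSO in log2(FPKM + 1) (horizontal axis) for each measured gene of the tubulin members and of 8 related lists, with 12 µM SFA (orange) and 18 µM SFE (green); black bars are list medians and dashed lines are 1.5-fold. Most points lie between the dashed lines, and the points farthest to the left are MAP7 and MAP1B with both compounds.

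TUBA1B and TUBB2A had the largest differences among the members, and the genes nearest to each in both differences were sought among 4950 other protein-coding or unclassified genes at 5 FPKM or more, over the 3 libraries. Nearest to TUBA1B were CCDC134 (10.7, 6.85 and 11.3 FPKM; distance 0.023 in log2 units), CENPM, a centromere protein gene, and HNRNPD, an RNA-binding protein gene. Nearest to TUBB2A were SH3BGRL3 (8.49, 12.7 and 12.1 FPKM; distance 0.0055), TIMP1, a metalloproteinase inhibitor (38.4, 56.2 and 53.1 FPKM), and LMAN2L.

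As a check of the cell type, keratins KRT8 and KRT18 were abundant (416 and 534 FPKM with DMSO), and 4 of 8 epithelial markers reached 1 FPKM, while CDH1 and EPCAM, which define many epithelia, stood at or below 0.162 and 0.336 FPKM. The epithelial markers summed to 1071, 680 and 680 FPKM and the 8 fibroblast markers, of which 4 reached 1 FPKM, to 31.1, 16.9 and 20.1 FPKM. KRT8 (416, 223 and 232 FPKM) and KRT18 (534, 292 and 294) carried the lower epithelial sum, while KRT7 (118, 161 and 151) and CLDN4 (1.48, 1.97 and 1.72) were above DMSO with both compounds. Of the fibroblast markers THY1 was also above DMSO (4.29, 6.48 and 7.25 FPKM). The part of these markers in the tubulin differences was not tested. Of 12 neuronal markers, relevant because TUBB2A and TUBB3 are neuron-enriched, 1 (SNAP25, at up to 1.52 FPKM) reached 1 FPKM, DCX and STMN2 were at 0 in every library, and the list summed to 1.78, 2.13 and 1.62 FPKM. MAP2, a neuronal microtubule-binding protein named after its values were seen, had 38, 201 and 191 counts, 7.28-fold higher with SFA (5.13 to 10.6) and 6.91-fold higher with SFE (4.86 to 10.1), at under 1 FPKM in each library. No leukocyte or endothelial marker reached 1 FPKM (highest 0.767 and 0.507). The DMSO library held 18767232 counts, the SFA library 13639844 and the SFE library 13644676.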

How the data were processed

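The authors deposited 1 table with whole-number counts and FPKM per gene for 3 libraries of AGS cells. The tools HISAT2 (2.0.4) and StringTie (1.2.3) and the build hg38 are named in the submitters' processing notes, without roles. How reads were counted, on which annotation and with what strand setting is not given in the sources used here. Dividing the deposited counts by FPKM and library total gave the length behind each FPKM value. Of identifiers that shared a gene name, all but the most abundant by mean FPKM were left out (373), and genes at 1 FPKM or more in a library were kept. Differences are log2(FPKM + 1), which understates low genes. Ratios of counts per library total have 95% exact conditional (Clopper-Pearson) intervals, and levels have exact Poisson intervals; both cover counting error only. With 1 library per group no p-value was computed. The script was tested on simulated data. Python 3.11.15, SciPy 1.17.1, pandas 2.3.3 and Biopython 1.88 were used. Lengths, overlaps and coding sequences came from GENCODE 29, in which all 10 members have the coordinates of the table. Beside the members, 8 gene lists and 5 marker lists were used; from each list except the other tubulins, up to 4 genes at 5 FPKM or more with the largest differences are named, and for the 2 members with the largest difference the 3 genes nearest in both differences. A gene that this rule names is not reported here. Members and lists were chosen with earlier results of these data known.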

Additional observations from a re-analysis of the deposited data

How the results depend on the processing

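No paired analysis was possible because each group has 1 library, so no replicate could be left out either. A pseudocount of 0.1, a filter of 5 FPKM and no filter left the median difference of the tubulin members at 0.00 with SFA and 0.08 with SFE, and the counts past 1.5-fold as they were. Median-ratio scaling moved the median to -0.033 with SFA and 0.0033 with SFE, the alpha sum to 0.833 and 0.997 of DMSO, and the beta sum to 0.909 and 0.890. Without members that overlap another gene only TUBB2A was left: medians were 0.53 with SFA and 0.46 with SFE, 0 members were 1.5-fold lower with SFA, and the beta ratio was 1.48 and 1.41; the alpha sum could not be given, since all 4 alpha members overlap a gene. Alternatives added after seeing the data were these. Per merged exon length the alpha ratio with SFA was 0.833, and 6 of 10 members kept their place in the DMSO order. With overlapping genes counted in, the alpha members were summed in CPM instead of FPKM, and the sum also held antisense and other non-tubulin genes. That sum was 0.942 of DMSO with SFA and 1.04 with SFE. The ratio of the summed counts to DMSO with SFA was 0.849 for TUBA1B, 1.001 for TUBA1A and 1.02 for TUBA1C. These were 3 of 20 single-gene ratios that left their counting interval, and TUBA1A was 24.9% of its sum with DMSO. By count ratio, list genes past 1.5-fold differ from the log2(FPKM + 1) counts as given in the report. Under median-ratio scaling, which was planned, 11 of 20 single-gene ratios to DMSO left their counting interval. TUBA1B with SFE moved to the other side of 1. Depth limits TUBB2A most, with 477 to 513 counts a library.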
